A study of Rattus norvegicus with 20 samples.

Results

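The proteasome subunit genes were followed in a rat β-cell line in which the mechanosensitive channel genes *Piezo1* and *Piezo2* had been silenced. Members were the protein-coding genes whose symbol begins with Psm, a letter from a to g and a digit, and whose normalized count averaged at least 10 over the 20 libraries. *Psmb8*, *Psmb9*, *Psmb10*, *Psme1* and *Psme2*, which form the interferon-inducible immunoproteasome and its PA28 cap, were left out by the rule. Of 49 genes with such a symbol, 42 were members, out of 23487 genes in the table, and a further 2 (*Psma8* and *Psmb11*) fell below the minimum. All 42 members passed the filter on low values and were tested. The rule used no difference between groups, but it was chosen with earlier results of these data known.

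The study asked how these channels bear on gene expression in INS-1 832/13 cells, a cloned insulinoma line that secretes insulin in response to glucose and carries a human proinsulin gene. Messenger RNA was sequenced in 5 groups of 4 libraries: untransfected cells, a control with non-targeting siRNA (si-Ctrl), and silencing by pooled siRNAs of *Piezo1* (si-P1), of *Piezo2* (si-P2) or of the pair together (si-P1+2). The siRNA was used at 25 nM, a second transfection followed after 48 h, and the cells were collected 48 h after that. Whether 25 nM was the total or the dose per target in double silencing is not stated. In si-P1+2, siRNA dose and target thus cannot be told apart. The sources do not say whether the 4 libraries of a group came from separate cultures, so every p-value reflects spread among these libraries alone, and that spread may be technical.

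The proteasome is the barrel-shaped protease that degrades proteins tagged with ubiquitin. Its 20S core is built from α-subunit rings that gate the entrance and β-subunit rings that hold the active sites, and the 19S particle on its end binds ubiquitin chains, removes them and threads the unfolded substrate into the core with a ring of ATPases. In β cells, which make proinsulin in large amounts, it also degrades misfolded proteins exported from the endoplasmic reticulum. By role the members were 7 α-ring genes, 7 β-ring genes, 6 ATPases of the 19S base, 3 other base subunits, 8 lid subunits, 3 assembly chaperones of the 19S particle, 4 of the 20S core, and 3 genes for alternative caps or an inhibitor. The remaining member, *Psmc3ip*, encodes a meiotic recombination factor and met the rule by its name alone.

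Reads recovered from the normalized values ranged from 16679934 to 56926609 per library. *Piezo1* was at 294 to 333 normalized counts in the si-Ctrl libraries, 105 to 132 in si-P1 and 112 to 145 in si-P1+2, whereas *Piezo2* stayed between 3.71 and 16.3 in all 20 libraries, so its silencing could not be checked. All 18 matched β-cell markers averaged at least 10 normalized counts, and of 17 matched markers of other cells only *Krt7*, *Gcg* and *Vwf* did, the remaining 14 summing to 12.8 to 47.6 per library. In si-P1 *Krt7* was higher (log2 fold change 0.55), as were 2 of the 18 β-cell markers, *Slc2a2* (0.41) and *Iapp* (0.31), where 13.3% of all genes tested passed. All 17 other-cell markers summed to 3049 to 6399 in si-Ctrl and 4290 to 5607 in si-P1. Their part in the results was not tested. The library si-Ctrl replicate 3 lay far from all others: along the first principal component, with 34.5% of the variance of 11698 genes, its score was 66.3 and those of the other libraries between -16.7 and 13.9. Comparisons with si-Ctrl are given with all libraries unless stated, followed by the values without this library. Of the markers, *Iapp*, *Ins1*, *Pdx1*, *Slc2a2* and *Krt7* were then called higher in si-P1 (24.2% of all genes tested passed). *Iapp*, *Pdx1* and *Krt7* were so in si-P1+2 (13.6%) and *Ins2* in si-P2 (2.84%). In bulk RNA, fewer cells of a type and less RNA per cell cannot be told apart.

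Promoter windows show what the members share in sequence. The RefSeq windows (build GRCr8, 250 bases before to 50 after each gene's start) held 38 of the 42 members, all but *Psma7*, *Psmd6*, *Psmd12* and *Psmd14*. Searched on both strands, CCGGAAG, the core bound by ETS factors, was in 15 of the 38 windows (39.5%) and in 10.7% of all 21842 protein-coding windows. AAGATGGC, a YY1 site, was in 8 (21.1% against 3.68%), CCAAT in 20 (52.6% against 38.0%), the 10-letter NRF1 site in 6 (15.8% against 5.66%) and TGACNNNGC, the core of the element bound by the NFE2L1 and NFE2L2 factors, in 8 (21.1% against 12.5%). The TATA box letters TATAAA were in 4 (10.5% against 13.0%). No searched motif contains another, and a match is a description of letters, not a binding site. The windows of *Psmd3*, *Psmd7* and *Psme3* are shown because these genes were lower after *Piezo1* silencing, and that of *Psmb5* as the target of proteasome inhibitors. Capitals mark matches on either strand to these motifs other than TATAAA, which the *Psmd7* window also held. The window of *Psmd3* (chr10:84139688-84139987, plus strand) and that of *Psmb5* (chr15:32047330-32047629, minus strand) each held TGACNNNGC. The window of *Psmd7* (chr19:52411267-52411566, minus strand) held the CCAAT box, the ETS core and the YY1 site, and that of *Psme3* (chr10:86757683-86757982, plus strand) held the CCAAT box and the ETS core. The window of *Psmd2*, also lower after *Piezo1* silencing, held none of the 6 motifs.
Psmd3: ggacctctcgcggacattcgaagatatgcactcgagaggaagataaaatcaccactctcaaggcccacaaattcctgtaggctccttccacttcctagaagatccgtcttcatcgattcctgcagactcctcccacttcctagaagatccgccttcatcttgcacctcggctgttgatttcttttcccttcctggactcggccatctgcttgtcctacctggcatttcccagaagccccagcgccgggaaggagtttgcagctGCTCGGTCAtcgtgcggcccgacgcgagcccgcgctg
Psmd7: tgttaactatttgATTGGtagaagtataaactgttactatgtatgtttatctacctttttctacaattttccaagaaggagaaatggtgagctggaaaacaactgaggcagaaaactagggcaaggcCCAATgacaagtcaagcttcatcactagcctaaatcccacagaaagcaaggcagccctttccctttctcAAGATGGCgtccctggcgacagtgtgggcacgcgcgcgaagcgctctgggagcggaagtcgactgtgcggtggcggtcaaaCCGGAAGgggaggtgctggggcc
Psme3: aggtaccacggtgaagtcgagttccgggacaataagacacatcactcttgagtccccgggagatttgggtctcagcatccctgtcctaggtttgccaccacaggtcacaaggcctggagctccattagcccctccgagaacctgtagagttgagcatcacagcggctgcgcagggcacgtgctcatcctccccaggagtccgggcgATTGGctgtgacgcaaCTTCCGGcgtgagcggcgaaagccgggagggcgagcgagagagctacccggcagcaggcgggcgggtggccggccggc
Psmb5: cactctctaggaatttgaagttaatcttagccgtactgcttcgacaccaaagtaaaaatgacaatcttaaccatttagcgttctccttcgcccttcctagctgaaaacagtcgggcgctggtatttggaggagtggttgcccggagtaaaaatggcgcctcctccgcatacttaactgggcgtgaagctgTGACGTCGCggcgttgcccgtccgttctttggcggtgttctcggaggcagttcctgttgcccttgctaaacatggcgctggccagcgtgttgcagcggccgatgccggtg

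Against si-Ctrl, 4 of the 42 proteasome genes were lower after *Piezo1* silencing and 0 were higher. They were *Psmd3* and *Psmd7* of the 19S lid, *Psmd2* of the 19S base and the alternative cap gene *Psme3*. Across all 15802 genes tested 13.3% passed the same threshold, a Benjamini-Hochberg adjusted p under 0.05 in limma, and 6.28% of all genes tested passed as lower, so the 4 lower members of 42 were near the background. The members' median log2 fold change was -0.06, with 30 of 42 below 0, beside a median of 0.02 over all genes.

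*Psmd3*, a structural subunit of the lid (ENSRNOG00000028103), carried the largest difference. Its normalized counts were 5228, 5332, 7112 and 5705 in si-Ctrl, 4171, 4270, 4104 and 4192 in si-P1, and 4459, 4606, 4501 and 4458 in si-P1+2. In untransfected cells they were 5048, 5377, 5237 and 5951, and in si-P2 4979, 5152, 5008 and 5564. All 8 libraries that received *Piezo1* siRNA lay below all 12 that did not, and within them the spread was small, at 4184 ± 68.5 in si-P1 and 4506 ± 69.7 in si-P1+2 (SD, n = 4 libraries each). The log2 fold change was -0.47 (SE 0.08, limma adjusted p = 0.000356) in si-P1 and -0.36 (SE 0.08, limma adjusted p = 0.0074) in si-P1+2. Without si-Ctrl replicate 3, the highest of the 20 libraries, they were -0.37 (limma adjusted p = 4.68e-05) and -0.27 (limma adjusted p = 0.00222). Against untransfected cells in place of si-Ctrl they were -0.37 and -0.26 (limma adjusted p = 0.00229 and 0.041).

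**Figure D1:**
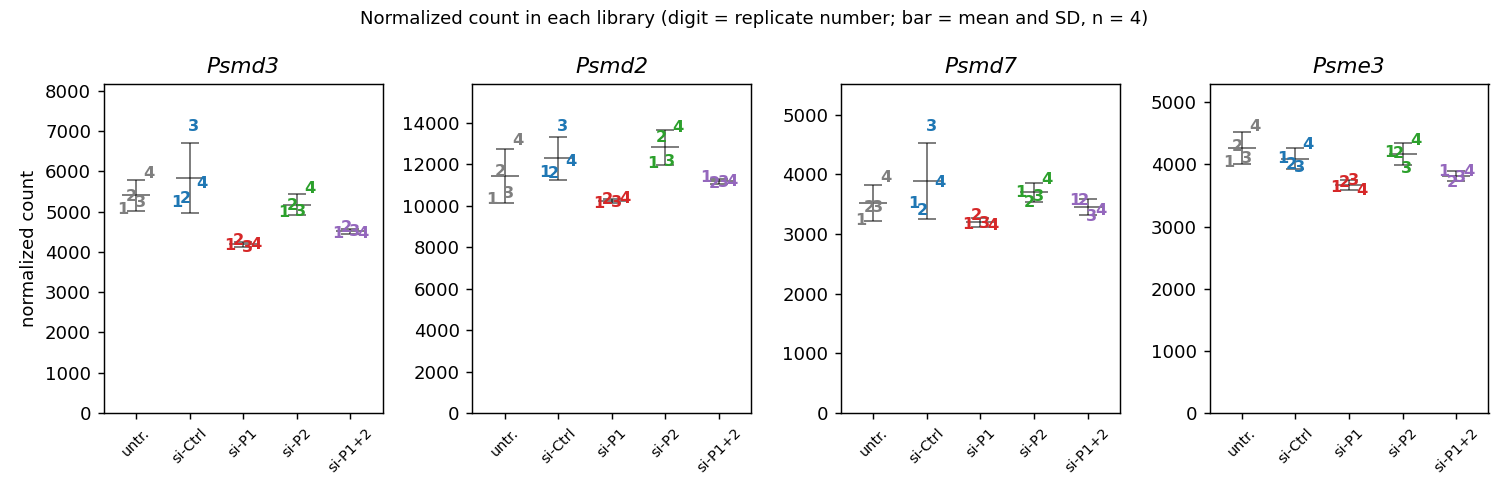
Normalized count of *Psmd3*, *Psmd2*, *Psmd7* and *Psme3* in each library, by group on the x axis. Each digit is a library at its replicate number and the bar gives the mean and SD of 4 libraries. The si-P1 libraries of *Psmd3* sit between 4104 and 4270, below every library of the other 4 groups, and si-Ctrl replicate 3 is the highest library for *Psmd3*, *Psmd2* and *Psmd7*.

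*Psmd2*, the large scaffold subunit of the base to which ubiquitin shuttle proteins bind, was at 11633, 11580, 13829 and 12131 normalized counts in si-Ctrl and at 10125, 10286, 10141 and 10353 in si-P1. In si-P2 it was at 12060, 13304, 12152 and 13782, in si-P1+2 at 11356, 11085, 11119 and 11158, and in untransfected cells at 10330, 11664, 10606 and 13168. The si-P1 libraries lay below those of si-Ctrl, si-P2 and si-P1+2 without overlap, but overlapped the untransfected libraries. The log2 fold change in si-P1 was -0.26 (SE 0.07, limma adjusted p = 0.0192), and -0.20 without si-Ctrl replicate 3 (limma adjusted p = 0.0283). Against untransfected cells it was -0.16 and did not pass (limma adjusted p = 0.149), and the call was also lost without si-P1 replicate 3.

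*Psmd7*, the lid subunit that pairs with the deubiquitinase *Psmd14*, was at 3517, 3396, 4803 and 3857 in si-Ctrl and at 3166, 3307, 3178 and 3146 in si-P1. The groups did not overlap, and the highest library was again si-Ctrl replicate 3. In untransfected cells it was at 3233, 3445, 3444 and 3949, in si-P2 at 3704, 3535, 3632 and 3922, and in si-P1+2 at 3561, 3558, 3302 and 3387. The log2 fold change in si-P1 was -0.27 (SE 0.08, limma adjusted p = 0.0381). This call rested on single libraries, being lost when si-Ctrl replicate 3 or 4 or any 1 of the 4 si-P1 libraries was left out (without si-Ctrl replicate 3, -0.16 and limma adjusted p = 0.0524). Against untransfected cells the log2 fold change was -0.13 (limma adjusted p = 0.306).

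*Psme3*, which encodes PA28γ, a nuclear cap that opens the core without ATP or ubiquitin, was at 4093, 4004, 3952 and 4326 in si-Ctrl and at 3630, 3707, 3750 and 3575 in si-P1. It was at 4039, 4286, 4101 and 4610 in untransfected cells, at 4196, 4172, 3937 and 4380 in si-P2, and at 3883, 3717, 3792 and 3882 in si-P1+2. For this gene si-Ctrl replicate 3 was the lowest of its group, and every library with *Piezo1* siRNA lay below every library without it. The log2 fold change was -0.16 in si-P1 (SE 0.05, limma adjusted p = 0.0422) and -0.10 in si-P1+2, which did not pass (limma adjusted p = 0.324). The si-P1 call was lost in 14 of 20 fits that left out 1 library and kept when the library left out was si-P2 replicate 3 or 4, untransfected replicate 1, 3 or 4, or si-Ctrl replicate 3, and against untransfected cells it was -0.21 (limma adjusted p = 0.00531).

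By role, those called in si-P1 were 2 of 8 lid genes, 1 of 3 other base genes and 1 of 3 cap or inhibitor genes, beside 13.3% of all genes tested, and a difference between roles was not tested. The 7 α-ring, 7 β-ring and 6 ATPase genes had median log2 fold changes of 0.02, -0.04 and -0.07 there and 0 calls, and medians of 0.06, 0.06 and 0.01 without si-Ctrl replicate 3. After *Piezo2* silencing 0 of 42 members passed (2.08% of all genes tested), with limma as with edgeR and DESeq2, and 9 had an unadjusted limma p under 0.05. The members' median there was -0.12, with 37 of 42 below 0, and the smallest adjusted p in limma was 0.132, for *Psmb2*. After double silencing *Psmd3* alone passed, as lower (4.76% of all genes tested, 2.35% as lower), and the members' median was -0.05. The median 95% half-width of a member's log2 fold change was 0.20, and the interval lay within ±0.5 for 40 of 42 members in si-P1, 38 in si-P2 and 41 in si-P1+2.

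**Figure D2:**
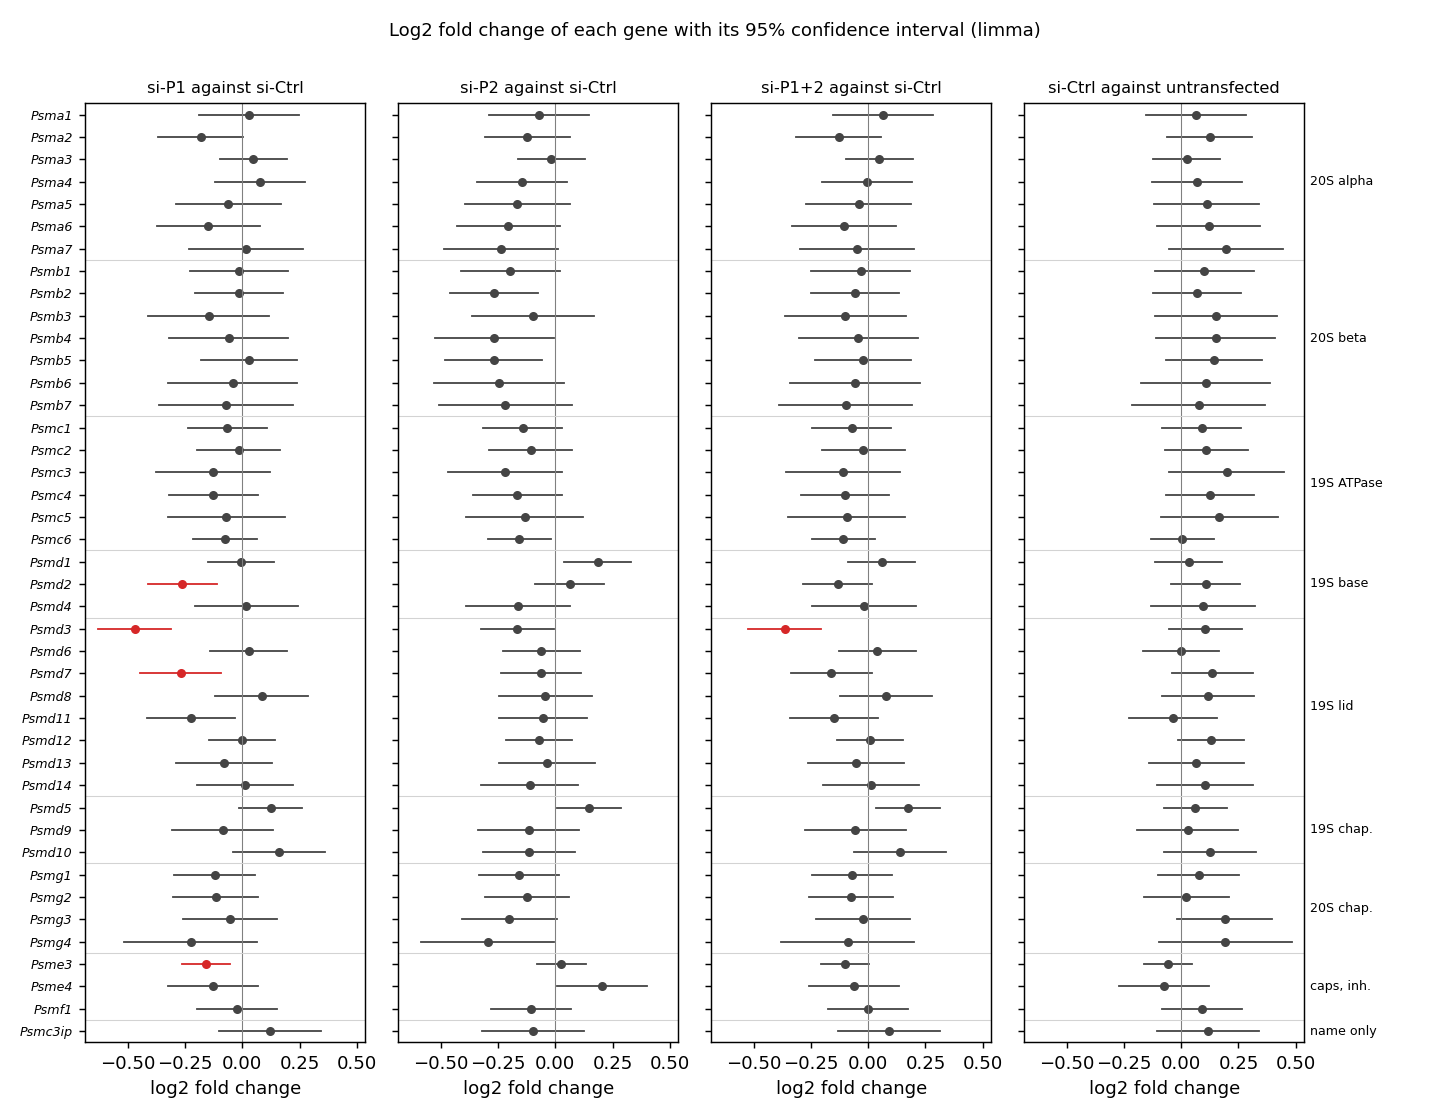
Log2 fold change (x axis) of each of the 42 genes (y axis, grouped by role) in 4 comparisons, each with its 95% confidence interval from limma. Red marks an adjusted p under 0.05: *Psmd3*, *Psmd7*, *Psmd2* and *Psme3* in si-P1, *Psmd3* in si-P1+2, and none in si-P2 or in si-Ctrl against untransfected cells.

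These medians moved with si-Ctrl replicate 3. In that library 36 of 42 members lay above the mean of the other 3 si-Ctrl libraries, by a median of 0.38 on the log2 scale, and 31 (73.8%) lay above all 19 other libraries, as did 23.2% of all genes tested. The exception at the other end was *Psme4*, at 5182 normalized counts there and 7482 to 7788 in the rest of its group. Without that library the members' median became 0.03 in si-P1 with 27 of 42 above 0, 0.05 in si-P1+2 with 31 above 0, and -0.05 in si-P2 with 11 above 0. What sets this library apart was not tested. Without it 6 members passed in si-P1 (24.2% of all genes tested), *Psmd2*, *Psmd3*, *Psmd11*, *Psme3* and *Psme4* as lower and *Psmd8* as higher, and 3 in si-P1+2 (13.6%), *Psmd3* and *Psme4* as lower and *Psmd5* as higher. In si-P2 0 passed in limma (2.84%), with 4 at an unadjusted p under 0.05. The sign of the log2 fold change turned from below to above 0 in 15 of 42 members in si-P1, 6 in si-P2 and 21 in si-P1+2, and counting these, 34, 37 and 34 members moved by more than 1.5 times.

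With the replicate number as a block as well, a fit added after the data had been seen, 15 members passed in si-P1 (37.0% of all genes tested). Of these 9 were higher (*Psma4*, *Psma7*, *Psmb5*, *Psmc2*, *Psmc3ip*, *Psmd4*, *Psmd5*, *Psmd6* and *Psmd8*) and 6 lower (*Psmd2*, *Psmd3*, *Psmd7*, *Psmd11*, *Psme3* and *Psme4*), where the fit with all libraries and no block had 0 higher. Correlations of same-numbered libraries with si-Ctrl were computed with its replicate 3 included. For si-P2 only the pair of that library fell below the threshold of 0.1 (-0.167). The other pairs were at 0.260, 0.361 and 0.193. For si-P1+2 replicate 2 fell below it too (-0.0135), beside replicate 3 (-0.0275). All deviations from si-Ctrl were taken from a group mean that includes its replicate 3. Whether the pairing holds without that library was thus not tested. In si-P2 4 passed (12.4%), *Psmd1* and *Psmd5* as higher and *Psmb2* and *Psmc6* as lower. In si-P1+2 11 passed (26.9%), 8 as higher (*Psma1*, *Psma7*, *Psmc3ip*, *Psmd4*, *Psmd5*, *Psmd6*, *Psmd8* and *Psmg3*) and 3 as lower (*Psmd3*, *Psmd11* and *Psme4*).

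**Figure D3:**
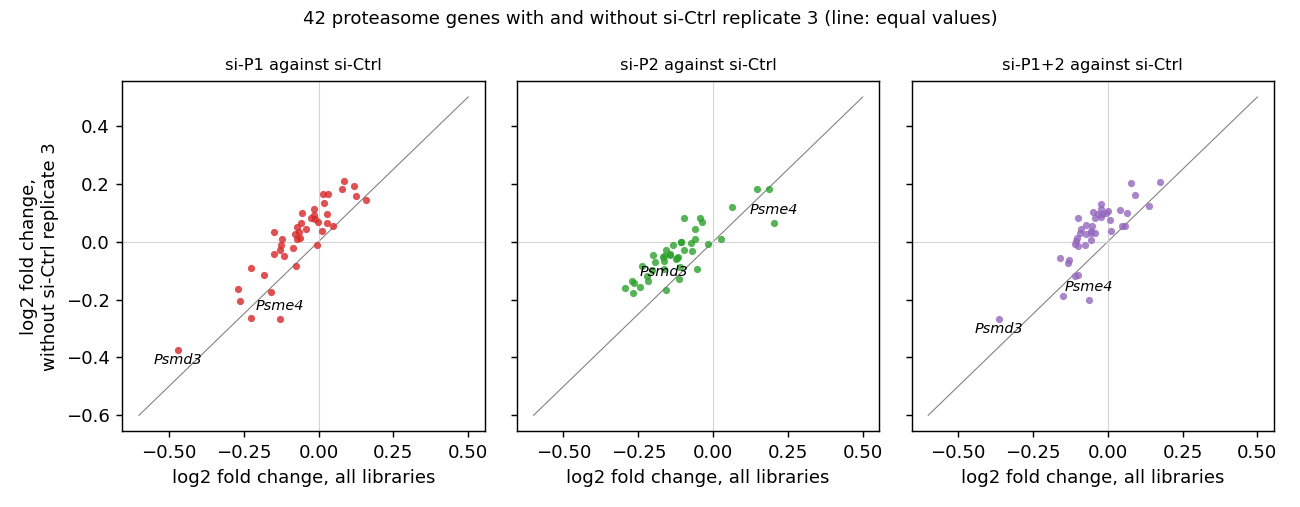
Log2 fold changes of the 42 genes against si-Ctrl with all libraries (x axis) and without si-Ctrl replicate 3 (y axis), 1 point per gene and 1 panel per comparison. Most points lie above the line of equal values, the *Psmd3* point stays the lowest in the si-P1 and si-P1+2 panels, and *Psme4* lies below the line.

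With all libraries the catalytic subunits did not pass in any comparison with si-Ctrl. *Psmb5*, the chymotrypsin-like subunit that proteasome inhibitors block, was at 2509, 2665, 2799 and 3016 in untransfected cells, 2644, 2773, 3999 and 2862 in si-Ctrl, 2991, 3205, 3060 and 3114 in si-P1, and 2591, 2613, 2244 and 2612 in si-P2. The si-P1+2 libraries were at 2816, 3167, 2784 and 3187. All si-P2 libraries lay below all si-Ctrl libraries. Its log2 fold change was -0.27 in si-P2 (SE 0.10, limma adjusted p = 0.157) and 0.03 in si-P1 (limma adjusted p = 0.888). Without si-Ctrl replicate 3, the highest of the 20 libraries for this gene, it was -0.14 in si-P2 (limma adjusted p = 0.34) and 0.16 in si-P1 (limma adjusted p = 0.087), and in si-P1 it passed once the block was added.

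*Psmb6*, the caspase-like subunit, was at 1939, 2194, 2130 and 2841 in untransfected cells, 1936, 2348, 2916 and 2617 in si-Ctrl, 2084, 2453, 2224 and 2708 in si-P1, and 1940, 1984, 1899 and 2398 in si-P2. The si-P1+2 libraries were at 2061, 2645, 2058 and 2638. Its groups overlapped throughout, and the log2 fold change in si-P2 was -0.25 (95% interval -0.53 to 0.04), or -0.16 without si-Ctrl replicate 3. *Psmb7*, the trypsin-like subunit, was at 4864, 6374, 5390 and 7066 in untransfected cells, 5078, 6076, 7334 and 6454 in si-Ctrl, 5018, 6761, 5483 and 6433 in si-P1, and 4838, 5770, 4686 and 6095 in si-P2. The si-P1+2 libraries were at 5178, 6613, 4975 and 6536. Its log2 fold change in si-P2 was -0.22, or -0.14 without si-Ctrl replicate 3. Replicates 2 and 4 were its high libraries in the untransfected, si-P1, si-P2 and si-P1+2 groups.

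**Figure D4:**
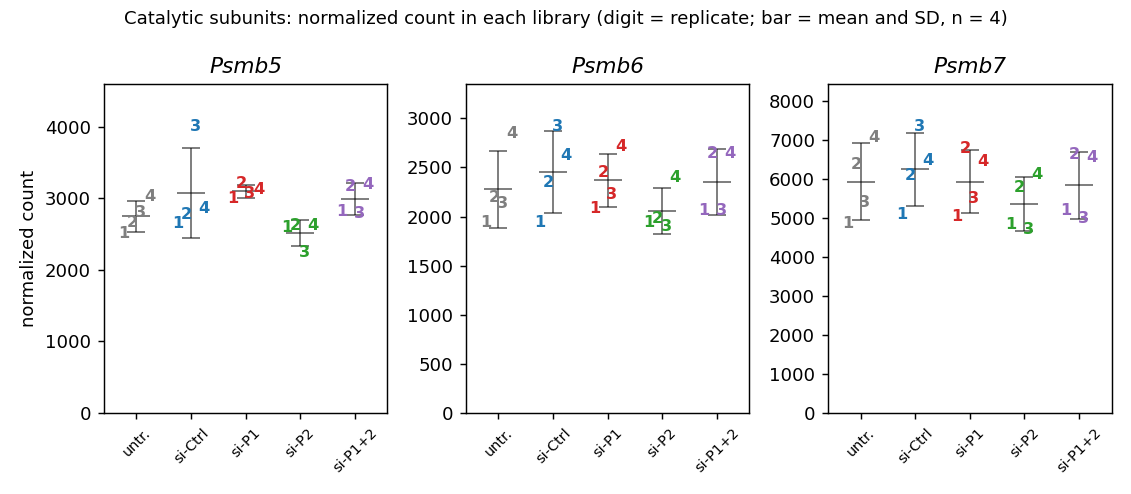
Normalized count of the catalytic subunits *Psmb5*, *Psmb6* and *Psmb7* in each library, by group on the x axis. Each digit is a library at its replicate number and the bar gives the mean and SD of 4 libraries. For *Psmb5* the si-P2 libraries lie at 2244 to 2613, below the si-Ctrl libraries, while the groups of *Psmb6* and *Psmb7* overlap.

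With all libraries, none of the other 37 subunit, chaperone and cap genes passed in si-P1, si-P2 or si-P1+2 against si-Ctrl, and nor did *Psmc3ip* (log2 fold changes 0.12, -0.10 and 0.09). The α-ring genes *Psma1* to *Psma7*, which form the gate of the core, ranged in log2 fold change from -0.18 (*Psma2*) to 0.08 (*Psma4*) in si-P1, from -0.24 (*Psma7*) to -0.02 (*Psma3*) in si-P2 and from -0.13 to 0.06 in si-P1+2. All 7 were below 0 in si-P2. Leaving out si-Ctrl replicate 3, they ranged from -0.12 (*Psma2*) to 0.18 (*Psma4*) in si-P1, with 5 above 0, from -0.10 (*Psma6*) to -0.01 (*Psma3*) in si-P2, with 7 below 0, and from -0.06 to 0.10 in si-P1+2. The β-ring genes *Psmb1* to *Psmb4*, which have no active site in this core, were at -0.01, -0.01, -0.15 and -0.06 in si-P1 and at -0.20, -0.27, -0.10 and -0.27 in si-P2. With si-Ctrl replicate 3 left out they were at 0.11, 0.08, 0.03 and 0.06 in si-P1 and at -0.07, -0.18, 0.08 and -0.14 in si-P2, so the direction in si-P1, and that of *Psmb3* in si-P2, turned with this library. Of these *Psmb3* has 10 further copies named in RefSeq, and 17 members have at least 1. The copies were counted by name and their sequences were not compared. Whether reads of a copy were counted for a member was not tested.

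The ATPase genes *Psmc1* to *Psmc6*, whose products unfold the substrate, ranged from -0.13 to -0.02 in si-P1 and from -0.22 (*Psmc3*) to -0.11 in si-P2. The direction in si-P1 too depended on si-Ctrl replicate 3, without which they ranged from -0.08 (*Psmc6*) to 0.09 (*Psmc2*), with 3 above 0. In si-P2 they then ranged from -0.17 (*Psmc6*) to 0.00 (*Psmc2*), with 5 of 6 still below 0. For *Psmc6* the 4 si-P2 libraries, at 2022, 2077, 2029 and 2022, lay below all si-Ctrl libraries, at 2123, 2298, 2233 and 2449, without passing (log2 fold change -0.16, limma adjusted p = 0.197). Of the base, *Psmd4*, a ubiquitin receptor, was at 0.02 in si-P1, -0.16 in si-P2 and -0.02 in si-P1+2, and at 0.13, -0.05 and 0.10 without si-Ctrl replicate 3. *Psmd1*, the other large scaffold of the base, was at 3532, 3558, 3563 and 3777 in si-Ctrl and at 4086, 4106, 3994 and 4232 in si-P2. These libraries did not overlap, yet the difference did not pass (log2 fold change 0.19, limma adjusted p = 0.159, or 0.18 without si-Ctrl replicate 3).

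In the lid, *Psmd14*, the deubiquitinase that removes the ubiquitin chain, had log2 fold changes of 0.01, -0.11 and 0.01 in si-P1, si-P2 and si-P1+2, and 0.04, -0.09 and 0.04 without si-Ctrl replicate 3. *Psmd11*, a scaffold subunit that contacts the core, was at 4416, 4955, 4445 and 5497 in si-Ctrl and at 3835, 4151, 4167 and 4317 in si-P1. The groups did not overlap. Its log2 fold change of -0.23 did not pass (limma adjusted p = 0.12), whereas with the replicate number as a block, which these groups support, it did (limma adjusted p = 0.00533). It also passed without si-Ctrl replicate 3, at -0.26 (limma adjusted p = 0.0495). The structural subunits *Psmd6*, *Psmd8*, *Psmd12* and *Psmd13* were at 0.03, 0.08, 0.00 and -0.08 in si-P1, and at 0.10, 0.21, 0.07 and 0.03 without si-Ctrl replicate 3, where *Psmd8* passed (limma adjusted p = 0.0309).

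Among the 19S assembly chaperones, which fit the ATPases together and leave the finished particle, *Psmd5* was at 1761, 1708, 1977 and 1951 in si-Ctrl and at 2032, 2003, 2132 and 2161 in si-P1+2. All 4 si-P1+2 libraries lay above all si-Ctrl libraries, at a log2 fold change of 0.17 that did not pass (limma adjusted p = 0.159) and of 0.21 that did without si-Ctrl replicate 3 (limma adjusted p = 0.0393). *Psmd10* was at 261, 279, 264 and 287 in si-Ctrl and at 297, 302, 299 and 320 in si-P1, also without overlap (log2 fold change 0.16, limma adjusted p = 0.314, or 0.14 without si-Ctrl replicate 3). *Psmd9* was at -0.09, -0.12 and -0.06 in si-P1, si-P2 and si-P1+2, and at -0.02, -0.05 and 0.01 without that library. The chaperones of the core, *Psmg1* to *Psmg4*, were all below 0 in the 3 comparisons, from -0.30 (*Psmg4* in si-P2) to -0.02 (*Psmg3* in si-P1+2). When si-Ctrl replicate 3 was left out this held in si-P2 alone, while *Psmg1* and *Psmg3* were above 0 in si-P1 (0.01 and 0.10) and *Psmg1*, *Psmg3* and *Psmg4* in si-P1+2 (0.06, 0.13 and 0.04). Of the remaining cap genes, *Psme4*, which encodes the nuclear cap PA200, was at -0.13 in si-P1, 0.20 in si-P2 and -0.06 in si-P1+2, and *Psmf1*, which encodes an inhibitor of the core, was at -0.02, -0.11 and 0.00. In the fit without si-Ctrl replicate 3, *Psme4* was at -0.27 (limma adjusted p = 0.00107), 0.06 and -0.20 (limma adjusted p = 0.0158), and *Psmf1* at 0.08, 0.00 and 0.11.

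Among members whose libraries did not overlap between the groups, 5 were lower (*Psmd2*, *Psmd3*, *Psmd7*, *Psmd11* and *Psme3*; 6.58% of all genes tested were) and 1 was higher (*Psmd10*; 7.56%) in si-P1. In si-P2, 2 were lower (*Psmb5* and *Psmc6*; 4.35%) and 1 higher (*Psmd1*; 4.26%). In si-P1+2, 3 were lower (*Psmd2*, *Psmd3* and *Psme3*; 4.37%) and 1 higher (*Psmd5*; 4.71%). These 3 comparisons share the si-Ctrl libraries.

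Transfection by itself was addressed by si-Ctrl against untransfected cells, where 0 of 42 members passed in limma (0.0886% of all genes tested), 0 had an unadjusted limma p under 0.05, and edgeR and DESeq2 called 0. The members' median log2 fold change was 0.10, with 38 of 42 above 0, and 0.01 with 27 above 0 without si-Ctrl replicate 3. In 0 members were the groups free of overlap, where 2.15% of all genes tested were higher and 1.94% lower without overlap. Double against single *Piezo1* silencing also gave 0 calls (0.0443%), with 0 at an unadjusted limma p under 0.05 and 0 by edgeR and DESeq2, and a median of 0.02. *Psmd2* and *Psmd3* were higher in every si-P1+2 library than in every si-P1 library, as was *Psmg1*, while 2.66% of all genes tested were so. The interaction of the siRNAs gave 0 calls in limma, edgeR and DESeq2 (0.00633% in limma), with 2 members at an unadjusted limma p under 0.05, *Psmd3* (0.27) and *Psmg4* (0.43). These values include si-Ctrl replicate 3. The members' median in this contrast was 0.13, and from 0.07 to 0.20 in the fits that left out 1 library. Whether the *Piezo2* siRNA acted differently alongside the *Piezo1* siRNA was thus not resolved for any member.

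A direct comparison of si-P1 with si-P2, added after the data had been seen, uses neither control group. It gave 4 lower members and 0 higher ones (14.7% of all genes tested, 6.49% as lower). *Psmd2* was at -0.32 (limma adjusted p = 0.00446), *Psmd3* at -0.31 (limma adjusted p = 0.0103), *Psme3* at -0.19 (limma adjusted p = 0.0171) and *Psme4* at -0.33 (limma adjusted p = 0.0227). The normalized counts of *Psme4* were 6815, 6350, 5915 and 6241 in si-P1 and 7849, 8400, 8050 and 7532 in si-P2, so that the groups did not overlap. They were 7224, 7440, 6966 and 7478 in untransfected cells, 7482, 7788, 5182 and 7549 in si-Ctrl, and 7139, 6592, 6452 and 6325 in si-P1+2. The call of *Psme3* was lost without replicate 4 of si-P1 or of si-P2, and that of *Psme4* without replicate 3 or 4 of si-P1 or replicate 2 or 3 of si-P2. *Psmb5* was higher in every si-P1 library than in every si-P2 library, at 0.30 (limma adjusted p = 0.0504). Such separation of these groups was common. Of all 15802 genes tested, 2139 were higher and 2139 lower without overlap, and among the members 5 were higher and 6 lower. With the replicate number as a block 9 members passed (23.6% of all genes tested), adding *Psmd1* and *Psmd11* as lower and *Psmb2*, *Psmb5* and *Psmd10* as higher. Without si-Ctrl replicate 3, which enters only the estimate of the spread, 12 passed (29.3%), 6 as higher and 6 as lower, and with the block as well 23 did (43.2%), 16 as higher and 7 as lower.

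Over the 5 groups together, limma's F test passed *Psmd3* (adjusted p = 0.000868), *Psme3* (adjusted p = 0.0159), *Psmd2* (adjusted p = 0.0199) and *Psmd5* (adjusted p = 0.0459), 4 of 42 members where 17.7% of all genes tested passed. *Psmd5* was at 1684, 1678, 1725 and 2003 in untransfected cells, 2094, 1920, 1962 and 2076 in si-P1, and 1928, 2023, 2054 and 2179 in si-P2. Its call was lost in 16 of 20 fits that left out 1 library and kept when the library left out was si-P2 replicate 1, untransfected replicate 4, or si-Ctrl replicate 3 or 4. Without si-Ctrl replicate 3, 9 members passed (34.1%), and with the replicate number as a block 8 did (30.6%). Both changes together gave 27 (53.9%).

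Most members differed between replicates 1 and 4 in the same direction in every group. The median log2 deviation of the members from their own means was below 0 in all 5 replicate 1 libraries, from -0.19 to -0.07, and above 0 in all 5 replicate 4 libraries, from 0.07 to 0.17. Replicates 2 and 3 were mixed, with the median above 0 in 2 of 5 libraries (-0.05 to 0.09) and 1 of 5 (-0.15 to 0.36). Of the 42 members, 33 (78.6%) were higher in replicate 4 than in replicate 1 in all 5 groups, as were 19.8% of all genes tested, and 0 were lower in all 5, as were 20.1%. The 9 others were *Psmd1*, *Psmd2*, *Psmd3*, *Psmd5*, *Psmd7*, *Psme3*, *Psme4*, *Psmf1* and *Psmg1*, which include the 4 members called in si-P1 against si-Ctrl. This count goes by sign alone. In those 4 the log2 differences below 0 ran from -0.07 (*Psmd7*) to -0.0002 (*Psme3*), both in si-P1+2.

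The share of a member's within-group variance that lay between replicate numbers had a median of 45.2%, beside 34.4% over all genes tested. Without si-Ctrl replicate 3 these were 77.5% and 46.5%, and the members ranged from 18.2% (*Psmg3*) to 94.4% (*Psma5*). *Psma1*, for example, was at 6107, 7047, 6618 and 8427 in untransfected cells and at 6735, 7676, 7303 and 8277 in si-P1, the same order of libraries in both groups. The read totals of the replicate 1 and replicate 4 libraries overlapped, at 18536093 to 56926609 and 25314021 to 46579053. What a replicate number stands for is not stated in the sources.

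**Figure D5:**
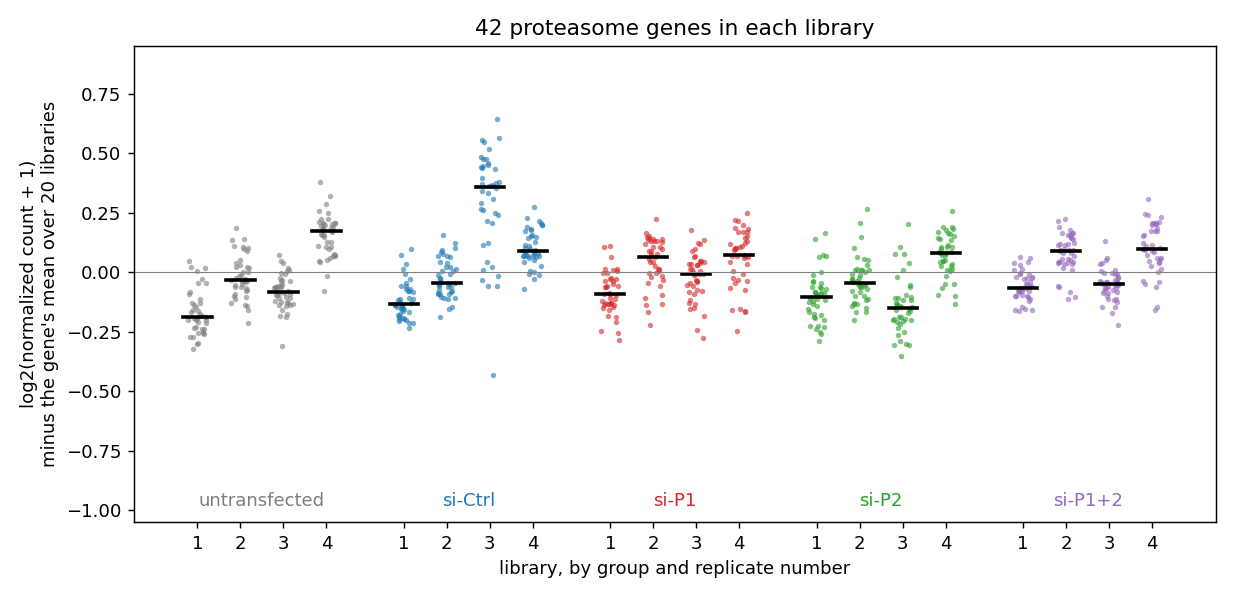
Deviation of each of the 42 genes from its own mean over the 20 libraries, in log2(normalized count + 1) on the y axis, for each library by group and replicate number on the x axis. Each point is a gene and each bar the median of the library: replicate 4 medians lie above 0 and replicate 1 medians below 0 in every group, and si-Ctrl replicate 3 has the highest median, at 0.36.

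Of 20 tested genes for ubiquitin, its activation, shuttling and extraction, 4 were lower and 0 higher in si-P1, where 6.28% of all genes tested were lower. With all libraries their median log2 fold change was -0.13, beside 0.02 over all genes, and the group was not tested as such. *Nploc4*, a cofactor of the extraction ATPase *Vcp*, was at -0.57 (limma adjusted p = 1.33e-05), *Bag6*, a chaperone for mislocalized proteins, at -0.22, and the shuttle genes *Ubqln1* and *Ubqln4* at -0.21 and -0.18. *Vcp* itself was lower in si-P2, at -0.32 (limma adjusted p = 0.00557), and in si-P1+2, at -0.21, where *Nploc4* was at -0.46. Among 10 partners outside the naming rule, *Ube3c*, a ubiquitin ligase that acts at the proteasome, was lower in si-P1 at -0.38 (limma adjusted p = 0.00448). With all libraries, 0 of the partners passed in si-P2 or si-P1+2 in limma. Every listed gene called against si-Ctrl with all libraries, here and among the next lists, also passed without si-Ctrl replicate 3 in the same direction. Without that library further genes of these lists passed. In si-P1 *Ubb* and *Sem1* were then also higher and *Zfand5* lower, where 24.2% of all genes tested passed. In si-P1+2 *Sqstm1* was also higher, and *Bag6*, *Ubqln1*, *Ubqln4* and *Zfand5* lower, where 13.6% passed.

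Of 15 genes for transcription of the proteasome, 2 were higher and 1 lower in si-P1, where 13.3% of all genes tested passed. *Stat3* (0.46) and *Ngly1* (0.27), whose product processes NFE2L1, were higher and *Nrf1* (-0.40), the factor of the NRF1 site, was lower. *Mafg*, a partner of NFE2L1, was higher in si-P2 at 0.35 (2.08% of all genes tested passed), and *Stat3* was higher in si-P1+2 at 0.28 (4.76%). Of the genes left out by the rule, *Psmb9* was higher in si-P1 at 0.83 (limma adjusted p = 0.000324) and in si-P1+2 at 0.53 (limma adjusted p = 0.026). *Psmb10* was higher in si-P1 at 0.64 (limma adjusted p = 0.00598). Without si-Ctrl replicate 3, *Psme1* and *Psme2* were also called higher in si-P1 (24.2% of all genes tested passed), and *Psmb10* and *Psme2* in si-P1+2 (13.6%). *Keap1* was then also called higher and *Bach1* lower in si-P1.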

How the data were processed

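Messenger RNA of 20 libraries was measured, 4 per group. The deposited signal values are normalized counts: the authors checked reads with FastQC 0.11.8 and MultiQC 1.7, mapped and quantified them with Salmon 0.14.0 on Rnor_6.0 and divided each library by a DESeq2 1.25.10 size factor. Dividing by the value of 1 read gave whole numbers for 100% of values within 0.001, and 0 columns lacked a sample. Here log2(value + 1) of the 15802 genes above 0 in at least 50% of the libraries was fitted in R 4.3.3 with limma 3.58.1, all groups in 1 fit with a variance trend and 15 residual degrees of freedom. Tests were two-sided at a Benjamini-Hochberg adjusted p of 0.05. A fold change on this scale understates changes of low genes. The members and gene lists were chosen with earlier results of these data known. Library values are given for the catalytic subunits, for up to 5 called members per direction and comparison, and, chosen after their values were seen, for *Psma1*, *Psmc6*, *Psmd1*, *Psmd5*, *Psmd10* and *Psmd11*. A choice by level per length was not made, because coding lengths were not used here. Of the listed genes outside the rule, all that passed against si-Ctrl with all libraries are named, beyond the 5 per comparison first set. Same-numbered libraries deviated together in all 4 pairs (correlation above 0.1 over 11698 genes) in si-P1 against si-Ctrl (0.111 to 0.559), si-Ctrl against untransfected cells (0.154 to 0.437), si-P1+2 against si-P1 (0.210 to 0.526) and si-P1 against si-P2 (0.261 to 0.420). They did not in si-P2 (-0.167 to 0.361) or si-P1+2 (-0.0275 to 0.449) against si-Ctrl. Alternatives were other pseudocounts, filters and scalings, edgeR 4.0.16 and DESeq2 1.42.0 on the recovered reads, a replicate block, other sample sets and leaving out each library. The fits were also run on simulated counts. These held no difference between replicate numbers and no library set apart from its group, so they do not bear on those features here.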

Additional observations from a re-analysis of the deposited data

Results flagged for a closer look

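In 11 of 210 combinations of a member and a group (5.24%, where chance gives about 1 in 20), the highest or lowest library lay apart from the other 3 by more than the 95% critical value of Dixon's test. Of these, 6 were the library si-Ctrl replicate 3, in which *Psmb5* was at 3999 normalized counts, *Psmd8* at 5419, *Psmf1* at 3036, *Psmg1* at 3085 and *Psmg3* at 4431, each the highest of its group, and *Psme4* at 5182, the lowest. The 5 others were *Psmb5* in si-P2 replicate 3 at 2244, the lowest of its group, and as the highest of their groups *Psmb6* in si-P2 replicate 4 at 2398, *Psmc6* in si-P2 replicate 2 at 2077, *Psmd1* in si-Ctrl replicate 4 at 3777 and *Psmd5* in untransfected replicate 4 at 2003. In no member did the test of the interaction pass.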

How the results depend on the processing

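No member called with all libraries and no block was called in the opposite direction under any alternative. With the replicate block without si-Ctrl replicate 3, however, *Psmc2* in si-P1 and *Psma7*, *Psmd4* and *Psmg3* in si-P1+2, uncalled and below 0 before, were called as higher. *Psmd3* kept its call in si-P1 under all 33 alternatives, with log2 fold changes from -0.52 to -0.36 and an adjusted p in limma of at most 0.0354, and in si-P1+2 it lost it only when the fit held just the groups compared (adjusted p = 0.181). In si-P1 the count of 4 called members became 2 with quantile normalization and with no variance trend, 1 with only the groups compared and 15 (9 higher, 6 lower) with a replicate block without si-Ctrl replicate 3, where all genes called went from 13.3% to 12.7%, 12.7%, 3.75% and 37.0%. In si-P2 the count of 0 became 2 with a replicate block (pairing not borne out by the correlations), 2 with the block and untransfected controls and 4 with the block without si-Ctrl replicate 3 (all genes 2.08%, then 8.65%, 6.04% and 12.4%). In si-P1+2 the count of 1 became 2 with the block (pairing not borne out by the correlations), 0 with only the groups compared, 2 with untransfected controls, 5 with the block and untransfected controls and 11 with the block without si-Ctrl replicate 3 (all genes 4.76%, then 11.3%, 0.437%, 8.21%, 16.6% and 26.9%). In si-P1 against si-P2 the count of 4 became 8 with DESeq2, 9 with the block, 12 with only the groups compared and 23 with the block without si-Ctrl replicate 3 (all genes 14.7%, then 17.9%, 23.6%, 25.8% and 43.2%). Over the 5 groups the count of 4 became 8 with the block and 27 with the block without si-Ctrl replicate 3 (all genes 17.7%, then 30.6% and 53.9%). The fits that combine the block with another choice were added after the data had been seen. Leaving out 1 library gave 1 to 6 calls in si-P1, 0 to 1 in si-P2, 1 to 3 in si-P1+2, 2 to 12 in si-P1 against si-P2, 2 to 9 over the 5 groups, and 0 to 0 in the other 3 comparisons. With 4 libraries a group, differences under about 0.20 on the log2 scale were mostly within the interval of a member.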

Other observations

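The core subunit genes below the minimum were near the limit of detection. *Psma8*, the α-ring gene of germ cells, averaged 8.47 normalized counts and ranged from 3.40 to 14.5 over the 20 libraries. *Psmb11*, the β-ring gene of the thymus, averaged 0.0984 and was above 0 in untransfected replicate 3 (1.12) and si-P1 replicate 1 (0.850) alone.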
